A study of Mus musculus with 6 samples.

Results

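The 10 genes described here encode enzymes of glycolysis that exist in several forms, called isozymes, in mouse white adipose tissue and in skeletal muscle. They were chosen by name: the hexokinases Hk1 and Hk2, the phosphofructokinase subunits Pfkl and Pfkm, the aldolase Aldoa, the phosphoglycerate mutase Pgam2, the enolases Eno1 and Eno3, and the lactate dehydrogenase subunits Ldha and Ldhb. All 10 were found among the 22040 genes of the deposited table, and all 10 passed the filter on low counts. Pfkm, Eno3 and Pgam2 are the forms that predominate in skeletal muscle, and the other 7 were treated as general forms. RNA sequencing covered 3 libraries of white adipose tissue from mice given intraperitoneal ginsenoside Rb1, a triterpene glycoside of ginseng, at a daily dose of 14 mg/kg (Rb1), and 3 from mice given intraperitoneal saline (CTR). The title links the action of Rb1 against obesity with myostatin, which limits muscle growth. The sources used here do not state strain, age, sex, diet, fat depot, length of treatment or any pooling of animals. They also do not say whether each library came from a mouse of its own, so the tests rest on the spread among these libraries, which may be partly technical.

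Glycolysis splits glucose into pyruvate, and lactate dehydrogenase converts pyruvate and lactate into each other. Hexokinase traps glucose in the cell, and phosphofructokinase makes the committed step. Fat cells use the pathway mainly to supply glycerol phosphate and acetyl groups for fat storage, whereas fast skeletal muscle uses it to make ATP during contraction. Some steps have a separate gene for muscle, such as Pfkm, Pgam2 and Eno3, so the transcripts of these genes also mark the tissue that a sample contains.

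The sequences upstream of the muscle and general genes of the mutase and enolase steps are shown first, because the results turn on these pairs. They are RefSeq promoter windows of 300 bases on GRCm38.p6, with 250 bases before the transcription start and 50 after, written 5′ to 3′ on the gene's own strand. Capitals mark matches on either strand to the E-box (CANNTG), the site of basic helix-loop-helix factors such as the myogenic regulators, and to the consensus of MEF2, a factor of muscle gene transcription. Pgam2 lies at chr11:5803747-5804046 on the minus strand, Eno3 at chr11:70656926-70657225 on the plus strand, Pgam1 at chr19:41911621-41911920 on the plus strand, and Eno1 (the second of its 3 windows) at chr4:150236947-150237246 on the plus strand.
Pgam2: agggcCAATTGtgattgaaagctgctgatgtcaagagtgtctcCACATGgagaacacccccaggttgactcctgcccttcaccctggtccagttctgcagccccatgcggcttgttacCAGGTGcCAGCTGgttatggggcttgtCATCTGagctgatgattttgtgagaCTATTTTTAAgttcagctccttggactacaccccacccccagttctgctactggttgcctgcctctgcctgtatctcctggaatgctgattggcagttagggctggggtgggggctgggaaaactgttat
Pgam1: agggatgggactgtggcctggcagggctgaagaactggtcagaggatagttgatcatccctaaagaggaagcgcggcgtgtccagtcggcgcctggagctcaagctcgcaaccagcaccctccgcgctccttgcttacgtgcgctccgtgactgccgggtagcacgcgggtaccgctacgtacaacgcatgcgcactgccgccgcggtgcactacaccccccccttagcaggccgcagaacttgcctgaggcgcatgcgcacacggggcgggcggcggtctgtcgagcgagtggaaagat
Eno3: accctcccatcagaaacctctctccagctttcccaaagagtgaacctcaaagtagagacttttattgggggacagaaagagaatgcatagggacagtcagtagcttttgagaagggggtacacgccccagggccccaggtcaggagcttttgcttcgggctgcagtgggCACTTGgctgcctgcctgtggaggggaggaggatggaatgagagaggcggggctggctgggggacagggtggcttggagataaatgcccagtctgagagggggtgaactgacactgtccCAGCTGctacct
Eno1: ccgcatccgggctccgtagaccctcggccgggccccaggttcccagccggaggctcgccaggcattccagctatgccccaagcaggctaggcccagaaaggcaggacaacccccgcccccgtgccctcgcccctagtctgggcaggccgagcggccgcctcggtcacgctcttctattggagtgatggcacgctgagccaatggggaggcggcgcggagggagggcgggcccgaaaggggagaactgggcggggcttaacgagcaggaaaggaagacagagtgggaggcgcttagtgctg

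Pgam2 was the only member with a MEF2 match in any of its windows, at position -80 from the RefSeq transcription start. Of all 32851 windows, 3.19% held such a match. The GENCODE annotation, used for the gene coordinates below, ends Pgam2 at 5803733, outside this window, so the position holds for the RefSeq start only. The Pgam2 window held 5 E-boxes and that of Eno3 held 2, while the 4 windows of Pfkm held 3, 0, 1 and 1. The windows of Pgam1 and Eno1 shown above held 0, but the first Eno1 window held 2 and those of the other 6 general members held 0 to 3, so the E-box counts of muscle and general forms overlapped. An E-box is common, since 72.3% of all windows had at least 1. CpG dinucleotides numbered 1 in the window of Pgam2, 3 in that of Eno3 and 4, 9, 12 and 4 in those of Pfkm, against a median of 7 over all windows (quartiles 3 and 20). The general members had 13 to 30, apart from 1 in the first window of Hk1 and 0 in the first of Aldoa. The core of the hypoxia response element (ACGTG), found in 19.6% of all windows, had 5 matches in the first Ldha window, of which 2 pairs are the 2 strands of 1 palindrome. It had 3 matches in the first Pfkm window, including 1 such pair, 2 in that of Hk2 and in the second of Hk1, and 1 in the second Pfkm window, the last 2 of the 3 Aldoa windows and that of Pgam1. These matches describe letters in the windows and are not evidence of binding.

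Total counts per library ranged from 15440339 to 24501446. Control replicate 2 (CTR replicate 2) stood apart through skeletal muscle transcripts: 26 muscle markers outside the glycolytic set took 3.78% of its counts. They took 0.0271%, 0.00714% and 0.0129% in Rb1 replicates 1, 2 and 3, and 0.0584% and 0.0595% in CTR replicates 1 and 3. Of the 22 markers tested, 20 were highest in CTR replicate 2. Myh2 and Mb were not, at 0.652 and 0.827 times the mean FPKM of CTR replicates 1 and 3. Myh7, the slow and cardiac myosin, was at 0 in 5 of the 6 libraries. Myh4, the fast IIb myosin, had 314218 of the 888824 marker counts in CTR replicate 2. The 9 adipocyte markers, led by Fabp4, took 1.85% to 2.37% of counts in Rb1 libraries and 1.84% to 2.13% in CTR libraries, and none was at 0, so the labelled tissue was present. In edgeR, 1 of 14093 genes passed an adjusted p of 0.05, and it is not a member. The values of the 10 genes are therefore given with and without CTR replicate 2.

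None of the 10 isozyme genes passed that threshold, with all libraries or without CTR replicate 2. The share of all tested genes that passed was 0.0071% with all libraries and 0.00703% without CTR replicate 2. DESeq2 gave a p for 7 members and withheld it for Pfkm, Eno3 and Pgam2, whose values in CTR replicate 2 it treated as outlying counts. It called 0 of those 7, against 380 of 17320 genes in either direction (1.73% called lower and 0.468% higher). Without CTR replicate 2 it called 0 of 10, against 175 of 17315 genes in either direction (0.82% called lower). The median log2 fold change of the 10 was -0.20, and 0.02 without CTR replicate 2, beside a median of 0.01 over all tested genes in both fits. The 3 muscle isozymes had a median of -4.78, and -0.64 without that library. The other 7 had a median of -0.01, and 0.05 without it. At an unadjusted p under 0.05, 3 of 10 members were on the lower side (the 3 muscle isozymes), against 7.54% of all genes. Without CTR replicate 2 it was 1 of 10 (Eno3), against 5.68%.

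**Figure D1:**
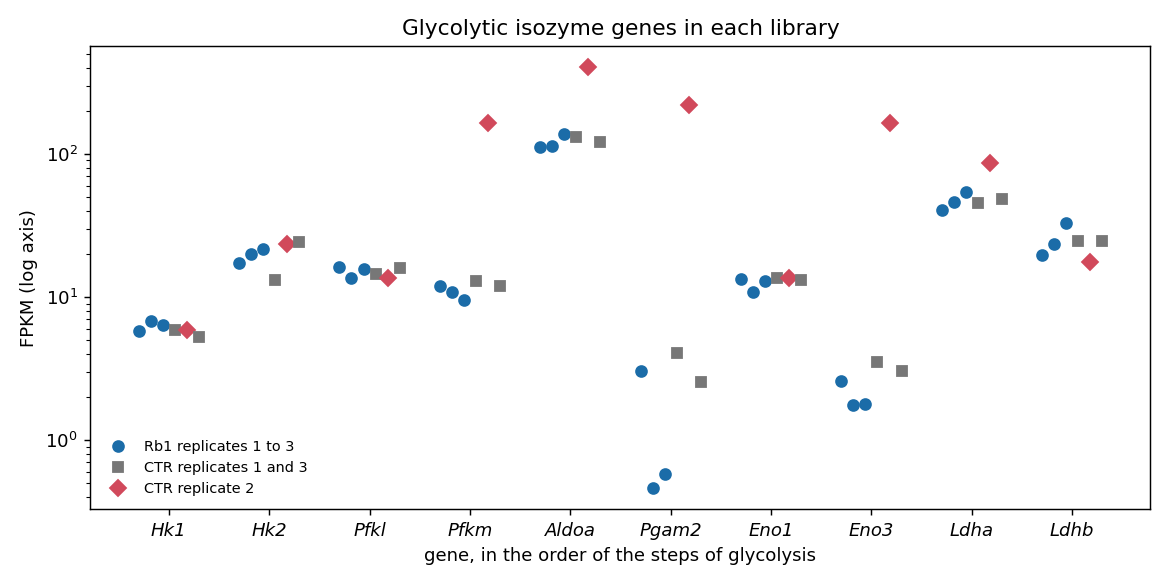
FPKM of each gene (log axis) in the 3 Rb1 libraries (circles), CTR replicates 1 and 3 (squares) and CTR replicate 2 (diamonds), with genes in the order of the steps. CTR replicate 2 is at 164 FPKM for Pfkm and Eno3 and at 221 for Pgam2, where the other 5 libraries reach at most 12.9, 3.51 and 4.05.

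Pgam2, the muscle subunit of phosphoglycerate mutase, had the lowest mean FPKM of the 10 genes in Rb1 libraries and the second highest level, after Aldoa, in CTR replicate 2. Its counts were 52, 6 and 12 in Rb1 replicates 1, 2 and 3, and 65, 4367 and 43 in CTR replicates 1, 2 and 3. In FPKM, the count per length and library total, this is 3.06, 0.463 and 0.583 with Rb1 and 4.05, 221 and 2.54 in controls. The groups overlap, because Rb1 replicate 1 lies above CTR replicate 3. The 6 counts of Rb1 replicate 2 carry an exact 95% Poisson interval of 2.2 to 13.1 counts, and the 43 of CTR replicate 3 one of 31.1 to 57.9, for counting error only. The log2 fold change, Rb1 over CTR, was -5.77 with an SE of 1.94 (edgeR adjusted p = 0.337). Without CTR replicate 2 it was -1.23 with an SE of 0.76 (edgeR adjusted p = 0.749). Pgam2 (ENSMUSG00000020475) lies on chromosome 11 from 5801640 to 5803733 on GRCm38.

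Eno3, the muscle enolase, was the member whose Rb1 values lay below all control values, including those of CTR replicates 1 and 3. It stood at 2.61, 1.75 and 1.78 FPKM in Rb1 libraries and at 3.51, 164 and 3.07 FPKM in controls. Of the 10 genes it was the only one with Rb1 lower and no overlap, with all libraries and without CTR replicate 2. Over all tested genes the shares were 10.5% and 15.0%. The log2 fold change was -4.78 with an SE of 1.63 (edgeR adjusted p = 0.34). Without CTR replicate 2 it was -0.64 with an SE of 0.20 (edgeR adjusted p = 0.484), a fitted level of 0.641 times that of the 2 remaining controls. The gene (ENSMUSG00000060600) lies on chromosome 11 from 70657202 to 70662513.

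Pfkm, the muscle subunit of phosphofructokinase, had a higher FPKM than the other muscle isozymes in the 5 libraries other than CTR replicate 2. It stood at 12.0, 10.8 and 9.58 FPKM in Rb1 libraries and at 12.9, 164 and 11.9 FPKM in controls. Outside CTR replicate 2 the 5 libraries spanned 9.58 to 12.9 FPKM, and the groups overlapped. The log2 fold change was -2.52 with an SE of 1.02 (edgeR adjusted p = 0.424), and -0.16 with an SE of 0.12 without CTR replicate 2 (edgeR adjusted p = 0.803). Its exons share 10.75% of their positions with Senp1 on the opposite strand and with a predicted gene, so its level is uncertain. The share of positions does not give the share of reads affected. The gene (ENSMUSG00000033065) lies on chromosome 15 from 98092589 to 98132451.

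Aldoa, the aldolase of muscle and most other tissues, was the most abundant of the 10 genes in every library. It stood at 112, 114 and 138 FPKM in Rb1 libraries and at 131, 404 and 121 FPKM in controls. Outside CTR replicate 2 the groups lay at the same level. The log2 fold change was -0.81 with an SE of 0.47 (edgeR adjusted p = 0.58), and 0.00 with an SE of 0.17 without that library. The symbol is carried by a second identifier, a neighbouring locus with 3 to 11 counts per library, which was not used.

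Ldha, the lactate dehydrogenase subunit of glycolytic tissue, stood at 40.5, 46.1 and 54.4 FPKM in Rb1 libraries and at 45.6, 86.6 and 48.3 FPKM in controls. CTR replicate 2 was again the highest, and the other 5 values overlapped. The log2 fold change was -0.31 with an SE of 0.28 (edgeR adjusted p = 0.74), and 0.05 with an SE of 0.19 without that library. Ldhb, the subunit of heart and other oxidative tissue, was lowest in CTR replicate 2. It stood at 19.6, 23.4 and 32.7 FPKM in Rb1 libraries and at 24.5, 17.5 and 24.6 FPKM in controls. Its log2 fold change was 0.24 with an SE of 0.24, and 0.10 with an SE of 0.25 without that library (edgeR adjusted p = 0.767 and 0.959).

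For the hexokinases and the general forms of phosphofructokinase and enolase the groups overlapped. Hk1, the widely expressed hexokinase, stood at 5.78, 6.86 and 6.37 FPKM in Rb1 libraries and at 5.87, 5.92 and 5.22 FPKM in controls, with a log2 fold change of 0.21 and an SE of 0.12 (edgeR adjusted p = 0.567), and 0.25 without CTR replicate 2. Hk2, the insulin-responsive hexokinase of muscle and fat, stood at 17.4, 19.9 and 21.6 FPKM in Rb1 libraries and at 13.1, 23.3 and 24.4 FPKM in controls. The Hk2 range in controls enclosed all 3 Rb1 values, and the log2 fold change was -0.01 with an SE of 0.27, and 0.10 without CTR replicate 2 (edgeR adjusted p = 0.994 and 0.967).

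Pfkl, the phosphofructokinase subunit of liver and many other tissues, stood at 16.3, 13.5 and 15.6 FPKM in Rb1 libraries and at 14.4, 13.6 and 16.0 FPKM in controls. Its log2 fold change was 0.08 with an SE of 0.11, and 0.04 without CTR replicate 2 (edgeR adjusted p = 0.839 and 0.971). Eno1, the general enolase, stood at 13.3, 10.9 and 12.9 FPKM in Rb1 libraries and at 13.6, 13.6 and 13.2 FPKM in controls, with a log2 fold change of -0.08 and an SE of 0.10, and -0.07 without CTR replicate 2 (edgeR adjusted p = 0.816 and 0.934). Neither Pfkl nor Eno1 was raised in CTR replicate 2. The Eno1 level is uncertain, since 72.2% of the 50-base stretches of its transcript also occur in other genes, and 70.5% in the retrogene Eno1b alone. Eno1b had 37.9, 32.7 and 35.1 FPKM in Rb1 libraries and 35.7, 33.4 and 36.6 FPKM in controls. For Pgam2, Eno3, Pfkm and Hk2 the share was 0.0%, for Aldoa 13.5%, for Ldha 16.6% and for Ldhb 27.0%. On GRCm38, Hk1 (ENSMUSG00000037012) lies on chromosome 10 from 62268855 to 62379908, Hk2 (ENSMUSG00000000628) on chromosome 6 from 82725025 to 82774454, and Pfkl (ENSMUSG00000020277) on chromosome 10 from 77986947 to 78010083. Aldoa (ENSMUSG00000030695) lies on chromosome 7 from 126795234 to 126800751, and Eno1 (ENSMUSG00000063524) on chromosome 4 from 150236721 to 150248879. Ldha (ENSMUSG00000063229) lies on chromosome 7 from 46841475 to 46855627, and Ldhb (ENSMUSG00000030246) on chromosome 6 from 142490249 to 142507957.

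**Figure D2:**
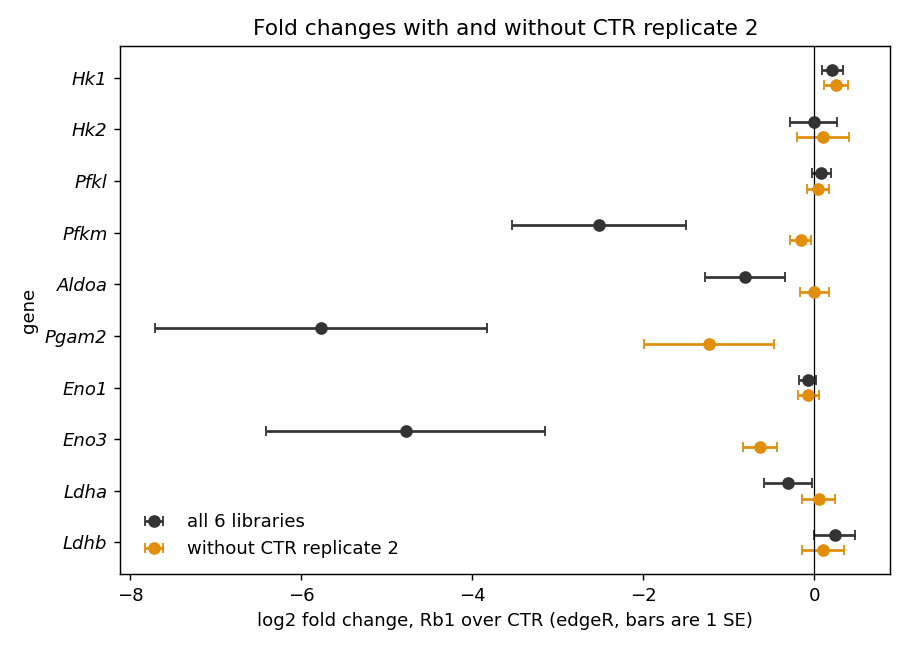
Log2 fold changes, Rb1 over CTR, from edgeR for the 10 genes, with bars of 1 SE, for all 6 libraries (dark) and without CTR replicate 2 (orange). Pgam2 stands at -5.77, and at -1.23 without that library, Eno3 at -4.78 and -0.64, and Pfkm at -2.52 and -0.16, while the other 7 lie between -0.81 and 0.25 in both fits.

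In Rb1 libraries the order of mean levels per length was Aldoa (121 ± 14.5 FPKM), Ldha (47.0 ± 6.96), Ldhb (25.2 ± 6.77), Hk2 (19.6 ± 2.10), Pfkl (15.1 ± 1.45), Eno1 (12.4 ± 1.29), Pfkm (10.8 ± 1.21), Hk1 (6.34 ± 0.539), Eno3 (2.05 ± 0.489) and Pgam2 (1.37 ± 1.47; all SD, n = 3). Neighbours whose values overlapped were Ldhb and Hk2, Eno1 and Pfkm, and Eno3 and Pgam2. The place of Eno1 is uncertain, since most of its 50-base stretches also occur in Eno1b. CTR replicate 3 had this order, while CTR replicate 1 had Hk2 below Pfkl and Eno1, and Pgam2 above Eno3, as in Rb1 replicate 1. CTR replicate 2 had Pgam2, Eno3 and Pfkm directly below Aldoa. The 3 muscle isozymes made up 7.30%, 5.24% and 4.07% of the summed FPKM of the 10 genes in Rb1 libraries, and 7.64%, 49.3% and 6.49% in controls.

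The balance of muscle and general forms was compared within each library as the log2 ratio of FPKM, with 0.01 added to both. Eno3 to Eno1 had log2 ratios of -2.35, -2.63 and -2.85 in Rb1 libraries and -1.95, 3.60 and -2.10 in controls. All 3 Rb1 values lay below all control values, with and without CTR replicate 2. The difference of means, Rb1 minus CTR, was -2.46 with an exact two-sided permutation p of 0.1, the smallest that 3 libraries against 3 allow, and 0.333 after adjustment over the 5 ratios tested. Without CTR replicate 2 it was -0.59 (exact permutation p = 0.2, the smallest possible there).

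Pgam2 was set against Pgam1, the general mutase, which is not a member and stood at 77.5, 74.2 and 86.1 FPKM in Rb1 libraries and 88.4, 74.0 and 78.2 FPKM in controls. Of the 50-base stretches of Pgam1, 41.5% also occur in other genes. The log2 ratios were -4.66, -7.30 and -7.18 in Rb1 libraries and -4.45, 1.58 and -4.94 in controls. Rb1 replicate 1 lay between the controls, so the groups overlapped. The difference was -3.78 (exact permutation p = 0.2, adjusted 0.333), and -1.69 without CTR replicate 2 (p = 0.4 by the same exact test).

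Pfkm to Pfkl had log2 ratios of -0.44, -0.32 and -0.70 in Rb1 libraries and -0.15, 3.59 and -0.42 in controls. The difference was -1.49 (exact permutation p = 0.2, adjusted 0.333), and -0.20 without CTR replicate 2 (exact permutation p = 0.4). Outside CTR replicate 2 the muscle subunit was thus 38.1% to 47.4% of the summed Pfkm and Pfkl level, against 92.3% in CTR replicate 2. Eno3 was 12.1% to 20.6% of Eno3 and Eno1 in the same 5 libraries and 92.4% in CTR replicate 2. These enolase shares leave out the retrogene Eno1b, which had a higher FPKM than Eno1 in every library, and would be lower with it in the sum. The shares of Pgam2 in Pgam2 and Pgam1 were 0.619% to 4.37%, and 74.9% in CTR replicate 2.

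For the remaining pairs the group means were closer. Hk2 to Hk1 averaged a log2 ratio of 1.63 ± 0.12 in Rb1 libraries and 1.79 ± 0.56 in controls (SD, n = 3 each), a difference of -0.16 by the exact permutation test (p = 0.6). Its spread in controls came from CTR replicate 1 at 1.16 and CTR replicate 3 at 2.23. Ldhb to Ldha had log2 ratios of -1.05, -0.97 and -0.73 in Rb1 libraries and -0.90, -2.31 and -0.97 in controls. Its difference was 0.47 (exact permutation p = 0.6), and 0.01 without CTR replicate 2.

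**Figure D3:**
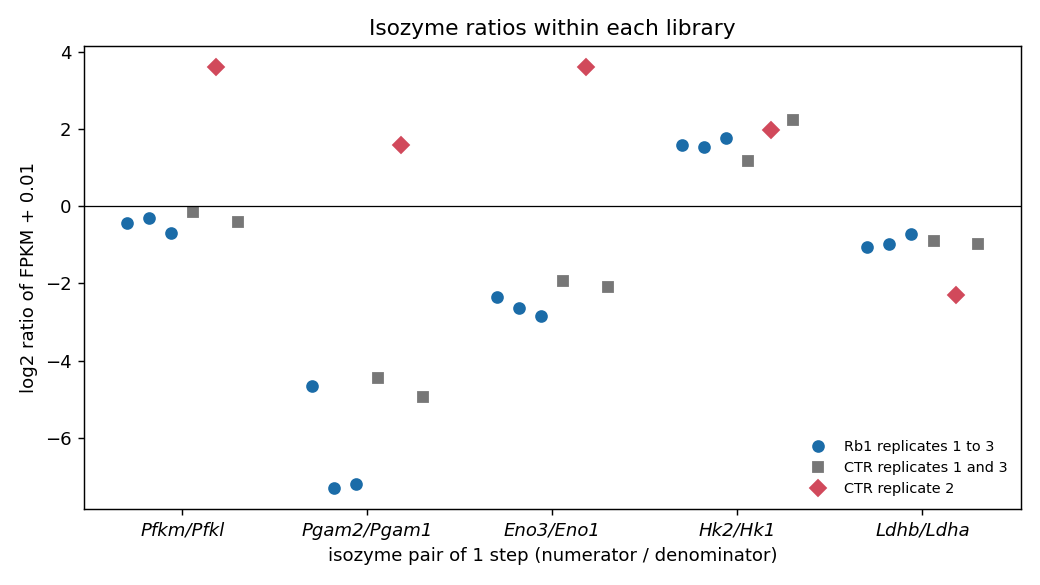
Log2 ratio of FPKM + 0.01 for 5 isozyme pairs, 1 point per library, with Rb1 as circles, CTR replicates 1 and 3 as squares and CTR replicate 2 as diamonds. CTR replicate 2 is the only library above 0 for the 3 muscle pairs (3.59, 1.58 and 3.60) and is the lowest for Ldhb to Ldha (-2.31).

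The summed 26 muscle markers and each of the 3 muscle isozymes were highest in CTR replicate 2, but in the other 5 libraries Pfkm stayed within 28.3 to 38.2 CPM (counts scaled to the library total). The markers summed to 271, 71.4 and 129 CPM in Rb1 libraries and to 584, 37807 and 595 CPM in controls, a range of 529-fold. All 22 tested markers had negative log2 fold changes with and without CTR replicate 2 (medians -6.34 and -2.17). In either case 19 of 22 had no overlap between groups. Over all tested genes, Rb1 was lower without overlap in 10.5% with all libraries and in 15.0% without CTR replicate 2. Markers at 0 were Myh7 and Tnni1 in Rb1 replicate 1, Actn2, Myh7 and Tnnc1 in Rb1 replicate 2, and Myh7, Tnni1 and Mb in Rb1 replicate 3. Among controls, Myh7 and Tnni1 were at 0 in replicate 1, Myh7 in replicate 2 and Tnni1 in replicate 3. In bulk tissue, fewer muscle cells and less muscle RNA per cell cannot be told apart. The part of muscle RNA in the lower Eno3 and Pgam2 values of Rb1 libraries was not tested.

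Set against these markers, Pgam2 varied least of the 10 genes. It had 9.48, 5.44 and 3.79 counts per 1000 muscle marker counts in Rb1 libraries and 5.82, 4.91 and 3.58 in controls, so its highest value was 2.65 times its lowest. Eno3 had 30.2, 77.1 and 43.3 counts per 1000 marker counts in Rb1 libraries and 18.9, 13.7 and 16.2 in controls, a range of 5.64-fold. Pfkm had 131, 447 and 219 in Rb1 libraries and 65.5, 12.8 and 59.4 in controls, a range of 34.9-fold. For the other 7 genes the range was 150-fold (Aldoa) to 709-fold (Ldhb). The muscle isozymes thus differed in how far their level followed the marker sum, with Pgam2 closest and Pfkm least. The make-up of that sum differed between libraries. Its most abundant marker was Myh1 in Rb1 replicate 1, Myl1 in Rb1 replicate 2 and Acta1 in Rb1 replicate 3. In controls it was Acta1 in replicate 1 and Myh4 in replicates 2 and 3.

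**Figure D4:**
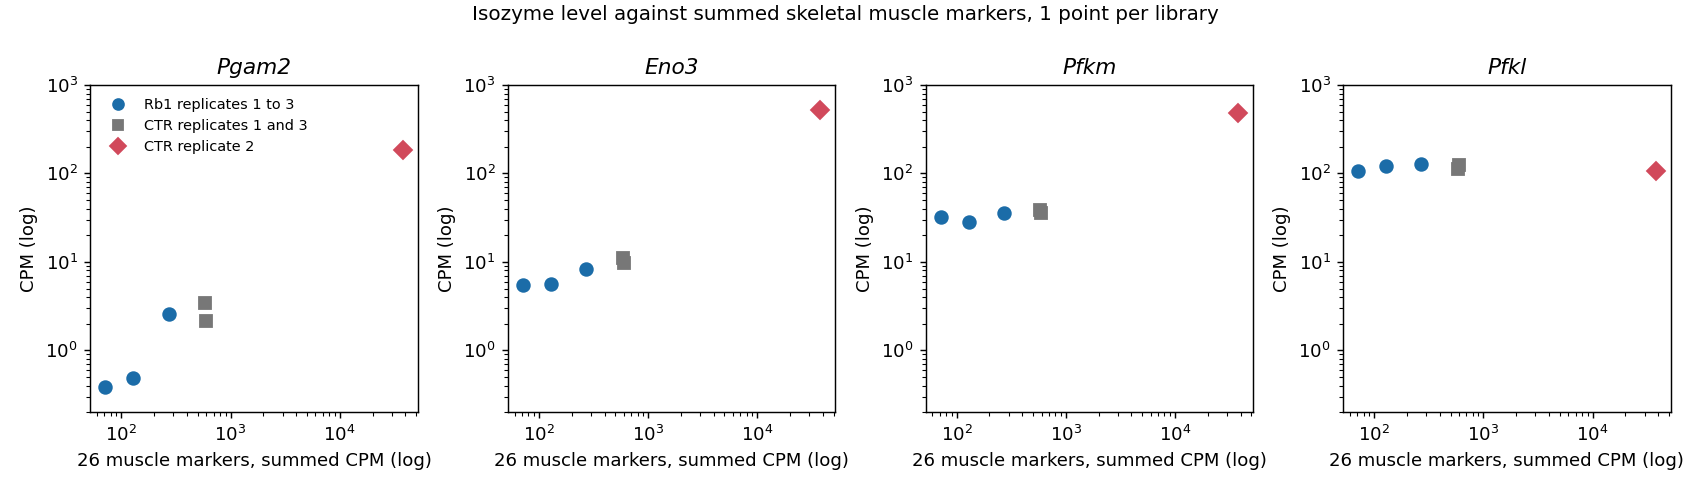
CPM of Pgam2, Eno3, Pfkm and, as a general form, Pfkl against the summed CPM of 26 skeletal muscle markers, 1 point per library and both axes logarithmic. Pgam2 spans 0.389 to 186 CPM as the markers go from 71.4 to 37807, and Pfkl spans 106 to 128 CPM.

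CTR replicate 2 also gives the pattern of the pathway in a sample rich in muscle RNA. Its FPKM was 67.2 times the mean of CTR replicates 1 and 3 for Pgam2, 49.9 times for Eno3, 13.2 times for Pfkm, 3.21 times for Aldoa and 1.85 times for Ldha. The ratio was 1.24 for Hk2, 1.07 for Hk1, 1.01 for Eno1, 0.897 for Pfkl and 0.712 for Ldhb. As differences in FPKM the order changed, with 279 for Aldoa, 218 for Pgam2, 161 for Eno3, 151 for Pfkm and 39.7 for Ldha. Genes outside the set without a separate gene for muscle had ratios of 3.30 for Gapdh (glyceraldehyde phosphate dehydrogenase), 2.25 for Pkm (pyruvate kinase), 1.97 for Pgk1 (phosphoglycerate kinase), 1.51 for Tpi1 (triosephosphate isomerase) and 1.48 for Gpi1 (glucose phosphate isomerase). Their levels are uncertain too, since 34.4% of the 50-base stretches of Pkm, 68.0% of Pgk1, 7.5% of Tpi1 and 25.3% of Gpi1 occur in other genes. Gapdh stood at only 1.42 to 6.30 FPKM in all libraries, and 82.5% of its 50-base stretches also occur in other genes. This is a comparison of single libraries with no replicate check. CTR replicate 2 differed in other marker lists too. Its 5 brown fat markers summed to 41.3 CPM, against 16.9 and 13.1 in CTR replicates 1 and 3. Its macrophage markers summed to 2503 CPM, against 2091 and 1984. The sums of the adipocyte, erythroid and endothelial lists were below those of the other controls. The part of these differences in the ratios was not tested.

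**Figure D5:**
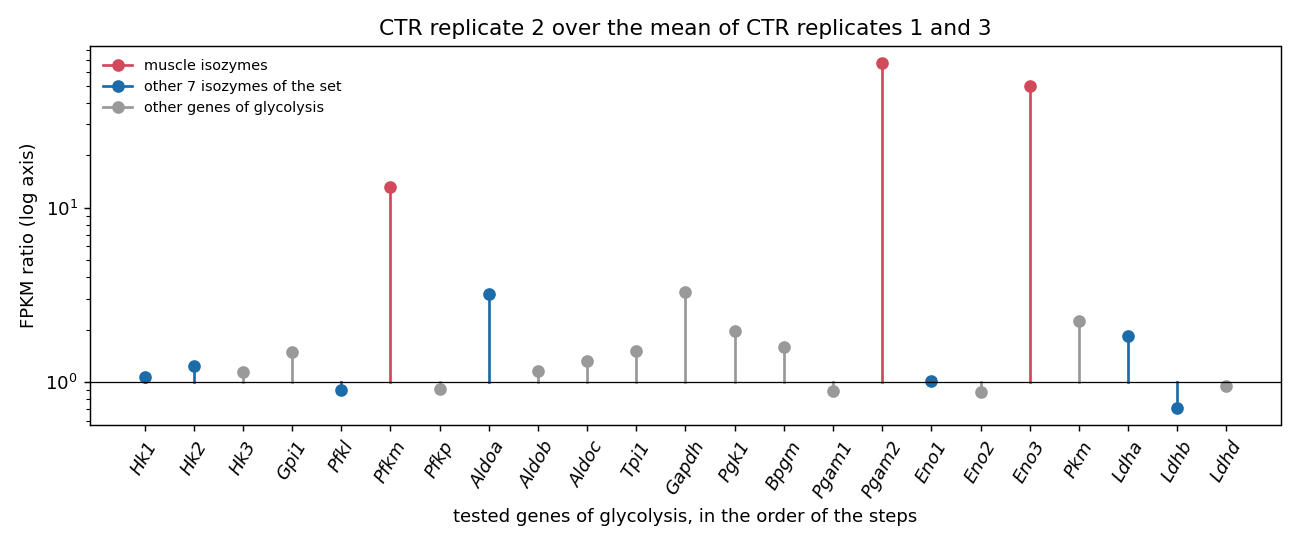
Ratio of FPKM in CTR replicate 2 to the mean of CTR replicates 1 and 3 (log axis, line at 1) for the tested genes of glycolysis in the order of the steps, with muscle isozymes in red, the other 7 members in blue and other enzymes in grey. The 3 muscle isozymes stand at 13.2, 49.9 and 67.2, and no other gene exceeds 3.30.

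The genes with the profile most like each muscle isozyme were found among 12917 protein-coding genes by the root mean square difference of centred log2 CPM over the 6 libraries. These genes had passed a minimum mean CPM, which a high value in CTR replicate 2 alone could meet. That library also weighs most in the measure, because each muscle isozyme lay far higher in it than in the others. Nearest to Pfkm were Des, encoding the muscle filament protein desmin (0.160 log2 units), Tpm2, a tropomyosin (0.178), and Ldb3, a Z-disc protein (0.197). Nearest to Eno3 were Txlnb (0.286), Ppp1r3a, which targets a phosphatase to muscle glycogen (0.301), and Capn3, a muscle calpain (0.327). Nearest to Pgam2 were Trdn, the calcium release protein triadin (0.365), Mylk2, the skeletal myosin light chain kinase (0.384), and Tmod4, a skeletal tropomodulin (0.391). Of the 9 genes, Des and Tpm2 had the smallest log2 fold changes without CTR replicate 2 (-0.18 and -0.21), and Mylk2 the largest (-2.13).

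Other genes of the pathway did not pass in edgeR in any of 5 lists. Of 20 further glycolytic genes 13 were tested, 10 of them with negative values and a median log2 fold change of -0.23, or 8 and -0.03 without CTR replicate 2. The smallest p belonged to Hk3, the hexokinase of white blood cells. Hk3 stood at 2.19, 1.71 and 1.78 FPKM in Rb1 libraries and at 5.24, 4.81 and 3.13 FPKM in controls, with no overlap. Its log2 fold change was -1.17 with an SE of 0.19 (edgeR adjusted p = 0.153, DESeq2 adjusted p = 8.489e-05), and -1.09 without CTR replicate 2 (DESeq2 adjusted p = 0.00964). The 9 macrophage markers, led by Lyz2, also summed to less in every Rb1 library than in any control. They took 0.117%, 0.176% and 0.165% of counts in Rb1 libraries and 0.209%, 0.25% and 0.198% in controls, with none at 0 and all 9 log2 fold changes negative. Their part in the Hk3 value was not tested.

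Eno2, the neuronal enolase, Pkm and Tpi1 followed Hk3 by p, with log2 fold changes of -0.55, -0.68 and -0.40, and of -0.60, -0.17 and -0.16 without CTR replicate 2 (edgeR adjusted p of 0.445, 0.506 and 0.574 with all libraries). Among the 7 untested genes were the sperm forms Ldhc, Gapdhs and Pgk2. Ldhc had 30, 0 and 0 counts in Rb1 replicates 1, 2 and 3 and 0, 0 and 2 in controls. Gapdhs had 51, 0 and 0 counts in Rb1 libraries and 0, 0 and 5 in controls, and Pgk2 had 19, 0 and 0, against 0, 0 and 5. These reads were thus found in Rb1 replicate 1 and CTR replicate 3, and Rb1 replicate 1 is also the Rb1 library with most Pgam2 reads. It also had the highest muscle marker sum of the Rb1 libraries, at 271 CPM against 71.4 and 129 CPM. Without Rb1 replicate 1 the Pgam2 log2 fold change was -7.07, in a fit that still held CTR replicate 2. It was -5.77 with all libraries and -1.23 when only CTR replicate 2 was left out.

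Genes that control glycolytic flux or glucose entry numbered 12 tested, with a median of 0.07, and -0.02 without CTR replicate 2. Slc2a3, a high-affinity glucose transporter, had the smallest p at a log2 fold change of 0.66 (edgeR adjusted p = 0.505), and 1.01 without CTR replicate 2. It was followed by Pfkfb1 (0.23) and Pfkfb4 (-0.36), which set the level of the activator of phosphofructokinase, and Fbp2, the muscle fructose bisphosphatase (-1.28). Fbp2 stood at 5.65, 1.63 and 2.58 FPKM in Rb1 libraries and at 4.24, 16.2 and 3.78 FPKM in controls, and its value was -0.25 without CTR replicate 2.

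The 17 genes of pyruvate and lactate handling had a median of 0.05, and 0.07 without CTR replicate 2. Slc16a3, the lactate exporter MCT4 of fast muscle, stood at 0.203, 0.178 and 0.126 FPKM in Rb1 libraries and at 0.376, 2.54 and 0.261 FPKM in controls. The groups did not overlap, and DESeq2 called it lower with all libraries (log2 fold change -2.62, adjusted p = 0.0275) but not without CTR replicate 2 (log2 fold change -0.87, adjusted p = 0.697). Pdha1, a subunit of pyruvate dehydrogenase, had a log2 fold change of 0.23, Slc16a7, the lactate and pyruvate carrier MCT2, had 0.36, and Pdk1, which inhibits pyruvate dehydrogenase, had 0.27. None of the 3 passed in edgeR or DESeq2.

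The 20 glycogen genes had a median of -0.20 with 13 negative, and of 0.12 with 7 negative without CTR replicate 2. Pygm, the muscle glycogen phosphorylase, stood at 2.96, 1.22 and 1.55 FPKM in Rb1 libraries and at 3.64, 307 and 4.21 FPKM in controls, with log2 fold changes of -5.77, and -1.01 without CTR replicate 2 (edgeR adjusted p = 0.318 and 0.494). Ppp1r3a stood at 0.305, 0.102 and 0.164 FPKM in Rb1 libraries and at 0.338, 12.5 and 0.313 FPKM in controls. Pygl, the liver phosphorylase, stood at 17.7, 20.4 and 19.1 FPKM in Rb1 libraries and 9.10, 9.11 and 13.8 FPKM in controls, without overlap. Its log2 fold change was 0.88 with an SE of 0.21 (edgeR adjusted p = 0.22). DESeq2 called it higher (adjusted p = 0.00716), as it did 0.468% of all genes, but not without CTR replicate 2 (adjusted p = 0.119). There the log2 fold change was 0.78 and the groups still did not overlap. Rb1 was higher without overlap for 773 of 14093 tested genes with all libraries, and for 1216 of 14216 without CTR replicate 2. Ppp1r3b, another glycogen-targeting subunit, had a log2 fold change of -0.47 (edgeR adjusted p = 0.285).

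Of 15 genes of the hypoxia response, whose factor HIF-1 is known to drive Ldha, Aldoa, Eno1 and Hk2, 14 were tested. Their median was 0.14 with and without CTR replicate 2, with 11 of 14 positive with all libraries and 10 of 14 without. Car9, a carbonic anhydrase and HIF-1 target, had only 2, 2 and 5 counts in Rb1 libraries and 12, 19 and 13 in controls. It met the count minimum of the filter only through the controls. In FPKM this was a low level of 0.0265, 0.0347 and 0.0547 in Rb1 libraries and 0.168, 0.217 and 0.173 in controls. Its log2 fold change was -2.15 (edgeR adjusted p = 0.198). Epas1, which encodes HIF-2 alpha, had 277, 161 and 185 FPKM in Rb1 libraries and 158, 134 and 161 FPKM in controls (0.49, edgeR adjusted p = 0.415). Ndrg1 and Kdm3a, other targets of the factor, had log2 fold changes of 0.55 and 0.18.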

How the data were processed

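Per the submitters' processing notes, CASAVA 1.8 and TopHat2 2.0.6 were used with the mouse build mm10. The sources used here do not give the counting tool, annotation release, strand setting or handling of multi-mapping reads. Genes with overlapping exons or near-identical copies are uncertain. Per the file headers, the deposited table holds raw read counts and the authors' FPKM per Ensembl gene for 6 libraries. The deposited FPKM equalled the count over a gene length and the column total within 0.00984% on 13169 genes with at least 10 counts in every library. FPKM therefore falls for all other genes where some genes take a larger share.

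Symbols, coordinates and transcripts came from GENCODE M21 (GRCm38) and matched 21933 of 22040 identifiers. Where a symbol had several identifiers, the one with most reads was used. Counts were tested with edgeR 4.0.16 in R 4.3.3 (TMM, filterByExpr with its count minimum of 10 and total minimum of 15, quasi-likelihood test, Benjamini-Hochberg over all genes), and DESeq2 1.42.0 was an alternative. SEs were derived from the F statistic. Isozyme ratios used an exact two-sided permutation test in SciPy 1.17.1, for which 3 libraries against 3 allow no p below 0.1. The fits were first tested on simulated data, where DESeq2 made more false calls than edgeR and edgeR missed more of the planted changes. A count of 0 allows up to 3 counts, or 0.122 to 0.194 CPM at these depths. No pair of libraries agreed within sampling noise (chi-square per degree of freedom of at least 31.69). The members and gene lists were chosen with earlier results of these data known. Named genes were the members, up to 4 genes of each pathway list with the smallest p, and the 3 genes nearest in profile to each muscle isozyme.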

Additional observations from a re-analysis of the deposited data

How the results depend on the processing

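None of the 10 isozyme genes was called by edgeR under another normalization (RLE), without the expression filter, with the replicate number as a block or with any single library left out, nor by DESeq2, which gave no p for the 3 muscle isozymes. The number of all genes called was 1, and it was 1 to 4 when 1 library was left out, 380 in DESeq2 and 175 in DESeq2 without CTR replicate 2, the last chosen after seeing the data. Directions turned for values near 0. Hk2 had a log2 fold change of 0.04 with the replicate block, and of -0.26 (without CTR replicate 1) to 0.16 (without CTR replicate 3) with 1 library left out, being positive also without CTR replicate 2 (0.10) and Rb1 replicate 1 (0.11). With 1 library left out, Aldoa ranged over -1.10 to 0.00 and Ldha over -0.50 to 0.05, both highest without CTR replicate 2. Ldhb ranged over -0.02 (without Rb1 replicate 3) to 0.43, and the Hk2 to Hk1 log2 ratio difference over -0.47 to 0.06 (without CTR replicate 3). The cause was not tested. After each gene's group mean was subtracted from its log2 CPM, same-numbered libraries correlated at 0.136, -0.109 and 0.018. Differently numbered libraries correlated at -0.265 to 0.262 in the same way, so the numbers were not taken as pairs. With the block, Pgam2 was at -3.41, Eno3 at -2.15 and Pfkm at -1.28 with no call, and 1 gene was called overall. With Eno1 and Eno1b summed, a choice made after seeing the data, the Eno3 ratio differed by -2.55. Pgam2 rests on 6 to 65 counts outside CTR replicate 2, which limits its precision.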

Other observations

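Transcripts of male germ cells appeared in a minority of the libraries. A list of 8 spermatid genes (Prm1, Prm2, Tnp1, Tnp2, Odf1, Akap4, Smcp and Acrv1), written after the counts of Ldhc, Gapdhs and Pgk2 were seen, summed to 588, 1 and 0 counts in Rb1 replicates 1, 2 and 3, and to 0, 0 and 63 in CTR replicates 1, 2 and 3. Prm2, a protamine of sperm chromatin, was the most abundant, with 200 counts in Rb1 replicate 1 and 20 in CTR replicate 3. The counts of the list thus follow the same 2 libraries as the sperm forms of lactate dehydrogenase, glyceraldehyde phosphate dehydrogenase and phosphoglycerate kinase. The muscle mutase subunit is known from mammalian testis as well as from muscle, and Rb1 replicate 1 had the highest Pgam2 count per 1000 muscle marker counts, at 9.48. CTR replicate 3, with 63 counts of the spermatid list, had the lowest, at 3.58. The part of germ cell RNA in these values was not tested.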
